A study of Mus musculus with 126 samples.

Results

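The genes described here are 9 genes of bone morphogenetic protein (BMP) signalling in mouse embryonic stem cells: the ligand genes Bmp4 and Bmp7, the target genes Id1, Id2, Id3 and Id4, and the inhibitor genes Smad6, Smad7 and Bambi. They were chosen by name, as ligands, targets and inhibitors of the pathway that supports self-renewal in serum. The rule uses no measured value, but it was set with earlier results of these data known. All 9 were found among the 23420 genes of the deposited count table, and all 9 were among the 15822 genes with enough counts to be tested. The study addressed how DNA methylation and histone acetylation relate to the binding of transcription factors, and RNA sequencing was done in 4 groups of 2 libraries each, which the series' design text calls biological replicates. Wild type cells came from the J1 line. TKO cells, of the same J1 strain, are labelled Dnmt1-/-, Dnmt3a-/-, Dnmt3b-/- and so lack the enzymes that set and maintain DNA methylation. Each genotype received either Trichostatin A (TSA), an inhibitor of histone deacetylases, at a labelled 5 ng/µl for 36 h, or DMSO at 0.0033% for the same time; the DMSO libraries are called controls below. All 4 groups were kept on gelatin in serum medium with leukaemia inhibitory factor, and serum can itself carry BMP activity. The labels do not say how many clones of TKO cells were used, so genotype cannot be told apart from cell line or clone. They also give no other dose or time of TSA.

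BMP ligands bind pairs of type I and type II receptor kinases, which phosphorylate Smad1, Smad5 and Smad9; these enter the nucleus with Smad4 and act at target genes. The Id genes are among the most direct of these targets, and encode proteins without a DNA-binding region that hold E proteins such as Tcf3 away from DNA and so block bHLH factors that drive differentiation. In embryonic stem cells kept in serum and leukaemia inhibitory factor, BMP signalling and Id proteins are known for restraining neural differentiation, and Smad6, Smad7 and Bambi restrain the pathway in turn.

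Total counts were between 13280631 and 15542527 per library, and 3 counts, the smallest level considered visible, corresponded to 0.183 to 0.243 normalised CPM (CPM, the count as a share of its library total after scaling by TMM factors). Such floors cover counting error only. The targeted genes Dnmt1, Dnmt3a and Dnmt3b were lower in all 4 TKO libraries than in all 4 wild type libraries, with log2 fold changes in DMSO of -1.78, -2.996 and -3.72. The 8 embryonic stem cell markers examined, Pou5f1, Sox2 and Nanog among them, were present in every library. Their summed level was 2824 to 3080 CPM in wild type controls, 1612 to 1847 in TSA-treated wild type cells, 3548 to 3915 in TKO controls and 1841 to 2112 in TSA-treated TKO cells. Summed levels of 5 trophoblast markers were 53.7 to 57.6, 196 to 211, 39.6 to 57.9 and 241 to 247 CPM in the same order, with Elf5 at 0 counts in 1 wild type control library. Those of 8 mesenchymal markers were 38.5 to 47.5, 83.7 to 101, 20.5 to 21.96 and 51.1 to 67.6 CPM, with Dcn at 0 in both TSA-treated TKO libraries and Lum at 0 in 1 library of each DMSO group. The 5 neural markers summed to 334 to 417, 173 to 206, 294 to 323 and 158 to 166 CPM. The 5 endoderm markers summed to 12.6 to 13.7, 16.3 to 18.7, 23.6 to 26.2 and 32.1 to 34.6 CPM. The 5 mesoderm markers summed to 16.3 to 26.5, 15.4 to 20.3, 8.51 to 8.62 and 20.8 to 23.4 CPM. The sums of stem cell and neural markers were thus lower, and those of trophoblast, mesenchymal and endoderm markers higher, in every TSA library than in every DMSO library of the same genotype. Single markers did not all follow their sum. Of the 5 endoderm markers, only Sox17 passed edgeR's test with TSA (adjusted p below 0.05), in both genotypes. Its mean went from 0.493 to 3.29 CPM in wild type and from 3.40 to 13.6 in TKO. In TKO the means of Gata4 and Gata6 were lower with TSA, at 5.76 against 6.81 and 4.00 against 5.26 CPM. The part of these cell types in the TSA results below was not tested. In bulk RNA, fewer cells of a type and less RNA per cell cannot be told apart.

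Between genes, levels were compared as normalised CPM per kilobase of exon. Id1 was the most abundant of the 9 genes in all 4 groups, at 78.3 ± 8.46 in wild type controls, 358 ± 36.5 in TSA-treated wild type cells, 65.7 ± 5.62 in TKO controls and 234 ± 66.5 in TSA-treated TKO cells (mean ± SD, n = 2, CPM per kilobase). Id3 came next in each group, although its libraries overlapped those of Id1 in wild type controls. Bmp7 was the lowest in all 4 groups, between 1.30 and 3.21 CPM per kilobase on average. Bmp4 stood at 11.5 ± 1.20 CPM per kilobase in wild type controls (SD, n = 2), and was above Bmp7 in each group. Some neighbours in the order overlapped: Smad7 and Id2, and Bambi and Smad6, in TKO controls, Bambi and Id4 in TSA-treated wild type cells, and in TSA-treated TKO cells Smad6 with Id4, Bmp4 with Smad7, and Smad7 with Bambi.

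**Figure D1:**
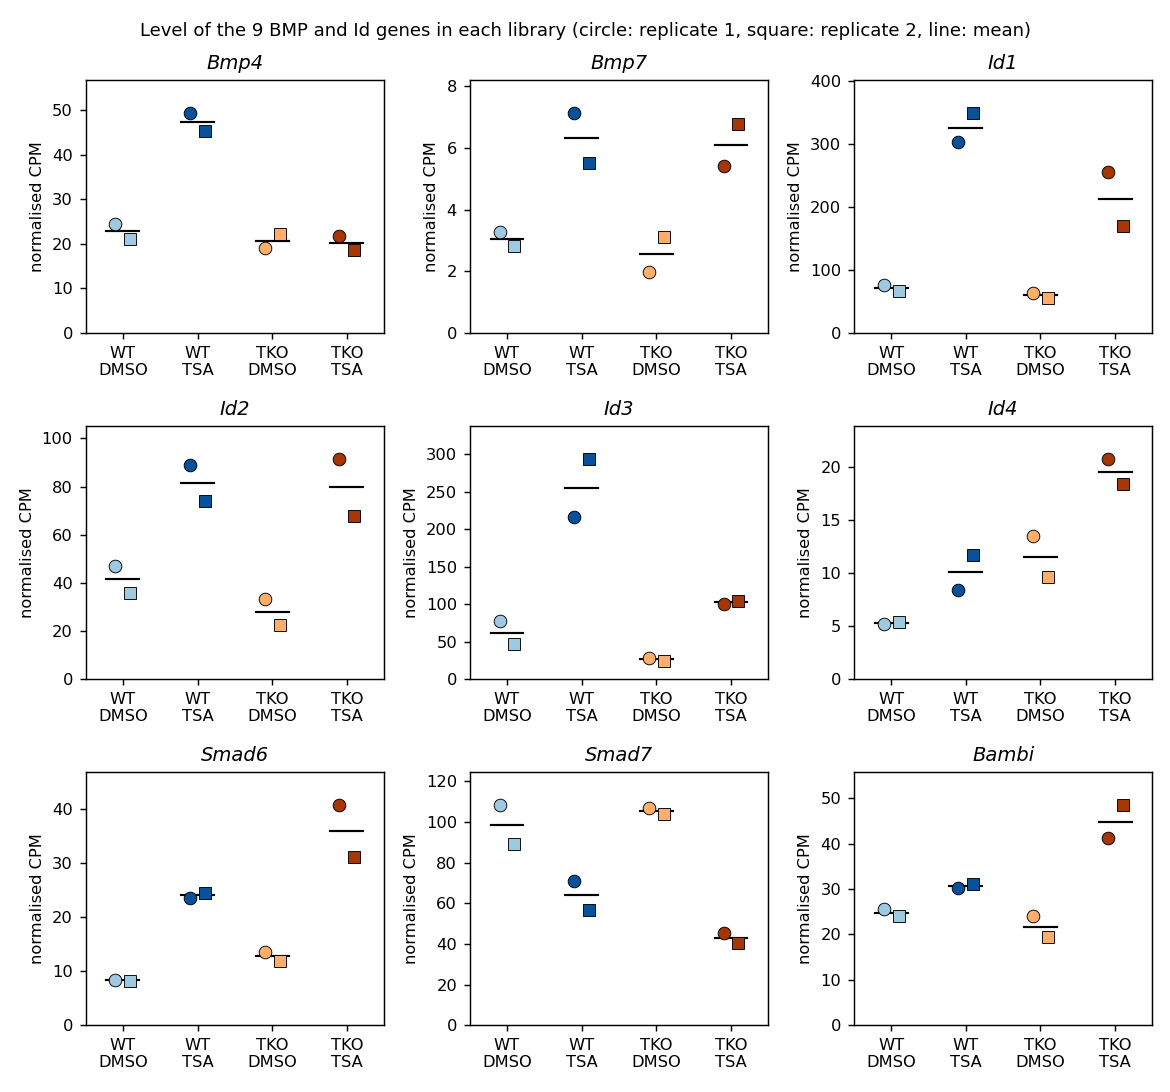
Normalised CPM (vertical axes, each from 0) of the 9 genes in the 8 libraries, with a circle for replicate 1, a square for replicate 2 and a line for the mean of each group. Bmp4 is high only in the 2 TSA-treated wild type libraries (45.4 and 49.4 CPM), whereas Id1 is high in all 4 TSA libraries, from 169.97 to 349 CPM.

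Bmp4 encodes the ligand best known for acting with leukaemia inhibitory factor in these cells, and lies on chromosome 14 from 46383520 to 46390599 on the minus strand (mm10). Its level was 24.5 and 21.1 CPM in the wild type control libraries, 49.4 and 45.4 in TSA-treated wild type cells, 19.1 and 22.1 in TKO controls, and 21.8 and 18.6 in TSA-treated TKO cells. Both TSA-treated wild type libraries stood above the other 6, which overlapped one another. With TSA it rose 2.07-fold in wild type (log2 fold change 1.05 ± 0.14 SE, edgeR adjusted p 0.00014). In TKO the log2 fold change was -0.03, with a 95% interval of -0.34 to 0.29 (edgeR adjusted p 0.888). The difference between these effects was itself tested: the TSA effect of TKO less that of wild type was -1.08 ± 0.20 on the log2 scale (edgeR adjusted p 0.0334). That difference kept its sign but lost its call when any of 5 libraries was left out, with adjusted p of 0.102 and 0.0512 without TSA-treated wild type replicates 1 and 2, 0.0683 and 0.167 without TKO control replicates 1 and 2, and 0.107 without TSA-treated TKO replicate 2. Exons of Bmp4 share 87 bases with Gm15217, a gene on the opposite strand that had at most 1 count in any library.

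Bmp7, a ligand that can pair with Bmp4, lies on chromosome 2 from 172869687 to 172940293 on the minus strand. It was at 3.28 and 2.84 CPM in wild type controls and at 7.14 and 5.50 in TSA-treated wild type cells. In TKO it was at 1.98 and 3.13 CPM in DMSO and at 5.41 and 6.78 in TSA. TSA libraries were above DMSO libraries in both genotypes, and the genotypes overlapped in each treatment. TSA raised Bmp7 by 1.05 ± 0.28 (log2, SE) in wild type and by 1.26 ± 0.28 in TKO, with edgeR adjusted p of 0.00858 and 0.00279. Without TSA-treated wild type replicate 1 the first of these was 0.84 (edgeR adjusted p 0.0680). The difference between its TSA effects was 0.21 on the log2 scale and was not called. Bmp4 and Bmp7 were not tested against each other.

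Id1 (chromosome 2, 152736274 to 152737410, plus strand) was at 76.8 and 65.9 CPM in wild type controls, 302 and 349 in TSA-treated wild type cells, 63.5 and 56.2 in TKO controls, and 256 and 169.97 in TSA-treated TKO cells. All 4 TSA libraries were above all 4 DMSO libraries, and in each treatment both TKO libraries were below both wild type libraries. TSA raised Id1 4.57-fold in wild type (log2 fold change 2.19 ± 0.17 SE, edgeR adjusted p 1.21e-05) and 3.55-fold in TKO (1.83 ± 0.17 SE, edgeR adjusted p 1.18e-05). In TKO against wild type, Id1 was at a log2 fold change of -0.25 in DMSO (edgeR adjusted p 0.339) and was lower by 0.61 in TSA (edgeR adjusted p 0.0244). The latter call was lost without TSA-treated wild type replicate 1, TSA-treated wild type replicate 2 or TSA-treated TKO replicate 2, where adjusted p was 0.0508, 0.108 and 0.158.

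Id3 (chromosome 4, 136143822 to 136145392, plus strand), which acts redundantly with Id1 in many tissues, was at 77.2 and 46.3 CPM in wild type controls and 216 and 293 in TSA-treated wild type cells. In TKO it was at 28.4 and 24.1 CPM in DMSO and 99.9 and 105 in TSA. The 4 groups did not overlap: TKO controls were lowest, then wild type controls, TSA-treated TKO cells and TSA-treated wild type cells. TSA raised Id3 4.11-fold in wild type and 3.90-fold in TKO, with log2 fold changes of 2.04 ± 0.21 and 1.96 ± 0.22 (SE) and edgeR adjusted p of 3.84e-05 and 2.91e-05. In TKO it was lower than in wild type by 1.24 ± 0.22 on the log2 scale in DMSO and by 1.32 ± 0.20 in TSA, with edgeR adjusted p of 0.00269 and 0.00155. Id3 was the only 1 of the 9 genes whose genotype calls in both treatments held under each alternative run.

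Id2 (chromosome 12, 25093799 to 25096092, minus strand), an Id gene with wide roles in stem and progenitor cells, was at 47.0 and 35.9 CPM in wild type controls, 88.8 and 74.0 in TSA-treated wild type cells, 33.2 and 22.6 in TKO controls, and 91.4 and 67.9 in TSA-treated TKO cells. It rose with TSA by 0.97 ± 0.20 (log2, SE) in wild type and by 1.51 ± 0.20 in TKO, with edgeR adjusted p of 0.00198 and 0.000102. In DMSO both TKO libraries were below both wild type libraries, at a log2 fold change of -0.57 that missed the threshold (edgeR adjusted p 0.0740). With DESeq2 it passed (-0.57, adjusted p 0.0358), as it did without the filter on low counts (-0.55, adjusted p 0.0360), without wild type control replicate 2 (-0.75, adjusted p 0.0415) and without TKO control replicate 1 (-0.88, adjusted p 0.0391). In TSA the genotypes overlapped, and the log2 fold change of -0.03 had a 95% interval of -0.45 to 0.39.

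Id4 (chromosome 13, 48261427 to 48264036, plus strand), the Id gene known best from neural progenitors, was at 5.21 and 5.43 CPM in wild type controls, 8.42 and 11.7 in TSA-treated wild type cells, 13.5 and 9.60 in TKO controls, and 20.8 and 18.4 in TSA-treated TKO cells. Where Id3 was lower in TKO, Id4 was higher: its log2 fold change was 1.12 ± 0.23 (SE) in DMSO and 0.96 ± 0.21 in TSA, with edgeR adjusted p of 0.00619 and 0.00938. With TSA it rose by 0.92 ± 0.23 (log2, SE) in wild type and by 0.76 ± 0.21 in TKO, with edgeR adjusted p of 0.0065 and 0.00824. Each of these 4 calls rested on 1 library. Adjusted p was 0.0611 for TKO in DMSO without TKO control replicate 1, 0.101 for TKO in TSA without TSA-treated wild type replicate 1, 0.0649 for TSA in wild type without TSA-treated wild type replicate 2, and 0.0850 for TSA in TKO without TKO control replicate 2.

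Summed per kilobase of exon, the 4 Id genes were at 179 ± 37.5 CPM in wild type controls, 695 ± 87.2 in TSA-treated wild type cells, 122 ± 16.4 in TKO controls and 415 ± 77.1 in TSA-treated TKO cells (SD, n = 2). The 4 groups did not overlap in this sum. Id1 and Id3 made up most of it. Id3 contributed 31.9% to 40.7% of the sum in the 4 wild type libraries and 22.3% to 30.4% in the 4 TKO libraries. Id4 contributed 0.801% to 2.15% in wild type and 2.66% to 6.07% in TKO. The Id genes of TKO cells thus held a smaller share of Id3 and a larger share of Id4 in both treatments, with no overlap between genotypes.

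**Figure D2:**
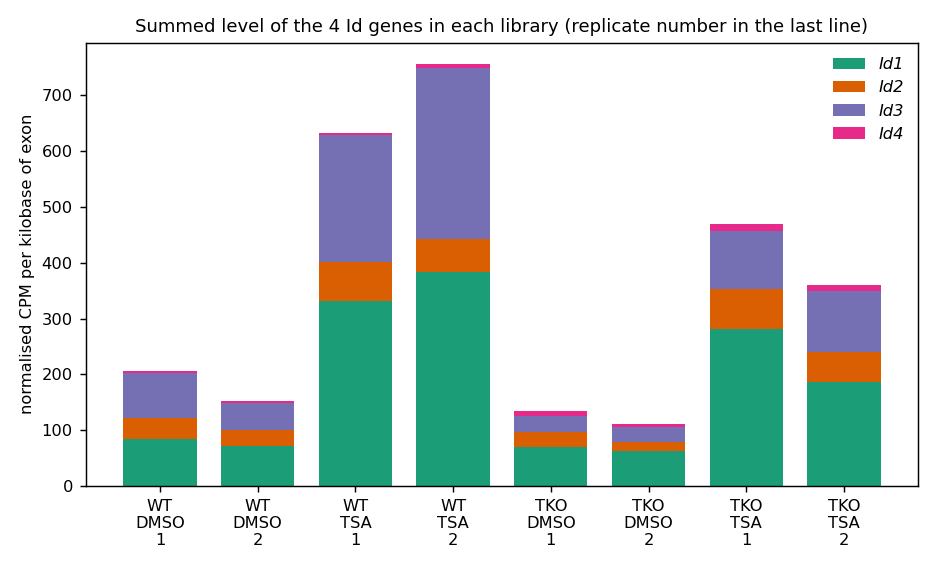
Summed level of the 4 Id genes in each of the 8 libraries (vertical axis, normalised CPM per kilobase of exon), with the part of each gene stacked in its own colour. The sum runs from 111 in a TKO control library to 757 in a TSA-treated wild type library, and Id3 takes a smaller part of each TKO bar.

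Promoter sequence was examined for 5 of the 9 genes, as the 250 bases before the RefSeq start (GRCm38.p6). Id1 and Bmp7 had no entry in the promoter set used. Smad7 and Bambi were left out, so nothing is said here of the promoter of Smad7, which fell with TSA. The 5 examined are shown, to set the ligand Bmp4, which rose with TSA in wild type, beside 4 targets of the pathway. Of these targets, Id3 was lower and Id4 and Smad6 higher in TKO in both treatments. Capitals mark GGCGCC, the GC-rich element bound by Smad1 and Smad5, and GTCT or its reverse complement AGAC, the box bound by Smad4. Each is written 5′ to 3′ on the strand of its gene, and the windows of Id2, Id3 and Smad6 end at the gene start of the deposited table, while those of Bmp4 and Id4 end 70 and 311 bases before it.
Bmp4 promoter, chr14:46390670-46390919, minus strand: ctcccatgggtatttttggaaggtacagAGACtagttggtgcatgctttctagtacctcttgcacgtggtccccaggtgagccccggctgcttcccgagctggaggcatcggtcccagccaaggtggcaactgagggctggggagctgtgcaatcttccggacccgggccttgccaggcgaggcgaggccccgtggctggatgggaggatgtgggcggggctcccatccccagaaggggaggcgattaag
Id2 promoter, chr12:25096093-25096342, minus strand: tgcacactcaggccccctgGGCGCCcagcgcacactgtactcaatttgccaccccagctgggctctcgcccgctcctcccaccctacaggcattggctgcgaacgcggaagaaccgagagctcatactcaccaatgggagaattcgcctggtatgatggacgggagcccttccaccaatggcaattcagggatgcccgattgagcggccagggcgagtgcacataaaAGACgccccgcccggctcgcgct
Id3 promoter, chr4:136143572-136143821, plus strand: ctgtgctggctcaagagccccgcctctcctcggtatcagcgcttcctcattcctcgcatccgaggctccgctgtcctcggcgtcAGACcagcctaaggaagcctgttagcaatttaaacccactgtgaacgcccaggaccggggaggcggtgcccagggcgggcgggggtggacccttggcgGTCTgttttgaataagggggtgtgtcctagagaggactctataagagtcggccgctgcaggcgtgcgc
Id4 promoter, chr13:48260866-48261115, plus strand: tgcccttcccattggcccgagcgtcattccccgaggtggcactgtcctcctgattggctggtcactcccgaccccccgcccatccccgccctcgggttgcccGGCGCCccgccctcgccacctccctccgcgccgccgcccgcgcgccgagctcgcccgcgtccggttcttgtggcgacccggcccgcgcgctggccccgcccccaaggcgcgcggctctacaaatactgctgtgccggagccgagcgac
Smad6 promoter, chr9:64022060-64022309, minus strand: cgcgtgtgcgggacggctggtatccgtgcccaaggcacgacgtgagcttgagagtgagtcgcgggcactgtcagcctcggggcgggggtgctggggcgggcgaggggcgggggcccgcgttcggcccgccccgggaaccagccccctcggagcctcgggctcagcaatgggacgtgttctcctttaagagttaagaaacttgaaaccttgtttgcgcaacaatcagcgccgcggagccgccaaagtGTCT

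GGCGCC occurred once in the Id2 window, starting 231 bases before the RefSeq start, and once in the Id4 window, 148 bases before it. It is its own reverse complement, and 9.59% of 32851 promoter windows of the same length hold it. GTCT or AGAC was in the Bmp4, Id2, Id3 and Smad6 windows, with 2 copies in Id3, and in 82.9% of all windows. The windows held 11 CpG sites in Bmp4, 18 in Id2, 18 in Id3, 35 in Id4 and 27 in Smad6, beside a median of 6 over all windows. Of all windows, 97.0% had fewer CpG sites than Id4, 91.4% fewer than Smad6, 78.3% fewer than Id2 and Id3, and 64.4% fewer than Bmp4. A match of letters is a description and not a site of binding, and promoter methylation was not analysed here.

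Of the inhibitors, Smad6 and Smad7 are intracellular and Bambi is a membrane protein that resembles a type I receptor without its kinase. Smad6 (chromosome 9, 63953076 to 64022059, minus strand), itself a BMP target, was at 8.49 and 8.18 CPM in wild type controls, 23.6 and 24.6 in TSA-treated wild type cells, 13.7 and 11.9 in TKO controls, and 40.8 and 31.2 in TSA-treated TKO cells. The 4 groups did not overlap. With TSA it rose by 1.53 ± 0.17 (log2, SE) in wild type and 1.49 ± 0.16 in TKO, with edgeR adjusted p of 5.38e-05 and 2.33e-05. In TKO it was higher than in wild type by 0.61 ± 0.17 (log2, SE) in DMSO and 0.58 ± 0.15 in TSA, with edgeR adjusted p of 0.0295 and 0.0224. Leaving out any of the 4 DMSO libraries ended the first of these calls, at adjusted p of 0.104 and 0.0796 without wild type replicates 1 and 2 and 0.169 and 0.0647 without TKO replicates 1 and 2. The second was lost without TSA-treated wild type replicate 1, TSA-treated wild type replicate 2 or TSA-treated TKO replicate 1, at 0.144, 0.0709 and 0.188.

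Smad7 (chromosome 18, 75367365 to 75395934, plus strand), which restrains both BMP and TGF-beta receptors, went the other way with TSA. It was at 108 and 89.0 CPM in wild type controls, 71.0 and 56.8 in TSA-treated wild type cells, 107 and 104 in TKO controls, and 45.4 and 40.3 in TSA-treated TKO cells. All 4 TSA libraries were below all 4 DMSO libraries. It fell by 0.62 ± 0.13 on the log2 scale in wild type (SE, edgeR adjusted p 0.00236) and by 1.30 ± 0.13 in TKO (SE, edgeR adjusted p 1.89e-05). The difference between these effects was -0.67 ± 0.19 (log2, SE) and missed the threshold at an edgeR adjusted p of 0.113, but passed it without the filter on low counts (-0.70, adjusted p 0.0427). The genotypes overlapped in DMSO, and in TSA Smad7 was lower by 0.58 in TKO than in wild type (log2, edgeR adjusted p 0.0127). Without TSA-treated wild type replicate 1 or TSA-treated TKO replicate 2 that call was lost, at 0.141 and 0.0970.

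Bambi (chromosome 18, 3507957 to 3516404, plus strand) was at 25.5 and 24.0 CPM in wild type controls, 30.3 and 31.2 in TSA-treated wild type cells, 24.0 and 19.5 in TKO controls, and 41.2 and 48.4 in TSA-treated TKO cells. The DMSO groups overlapped, and both TSA-treated TKO libraries were above the other 6. It rose with TSA in TKO (log2 fold change 1.04 ± 0.14 SE, edgeR adjusted p 8.72e-05). In wild type the log2 fold change was 0.31 ± 0.14 (edgeR adjusted p 0.0770), which passed the threshold when libraries were scaled by upper quartiles (0.46, adjusted p 0.0161) or by total counts (0.51, adjusted p 0.00997). The difference between the TSA effects was 0.73 (log2, edgeR adjusted p 0.101). In TSA, TKO was higher than wild type by 0.55 ± 0.13 (log2, SE, edgeR adjusted p 0.0165), a call lost without TSA-treated wild type replicate 1, TSA-treated wild type replicate 2 or TSA-treated TKO replicate 2, at 0.115, 0.0574 and 0.138.

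The first comparison asked what blocking histone deacetylation does where DNA methylation is present. With TSA in wild type, 8 of the 9 genes passed edgeR's test at an adjusted p below 0.05, and 52.8% of all tested genes did. Of the 8, 7 rose, beside 27.0% of all genes, and Smad7 fell, beside 25.9%. The median log2 fold change was 1.05 over the 9 genes and 0.01 over all tested genes. The same comparison in TKO again had 8 of the 9 called, beside 58.7% of all genes. Here 7 rose, beside 30.8%, Smad7 fell, beside 27.9%, and the medians were 1.26 and 0.04. The uncalled gene was Bambi in wild type and Bmp4 in TKO. Embryonic stem cell markers, in contrast, had 5 of 8 lower in wild type and 6 of 8 lower in TKO. Trophoblast markers had 5 of 5 higher in wild type and 4 of 5 in TKO, beside the shares of all genes above, and their part in the members' rise was not tested. Elf5, at 0.203 and 0.107 CPM on average in wild type and TKO controls, passed the count filter through its TSA libraries. A count that includes it favours a rise.

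**Figure D3:**
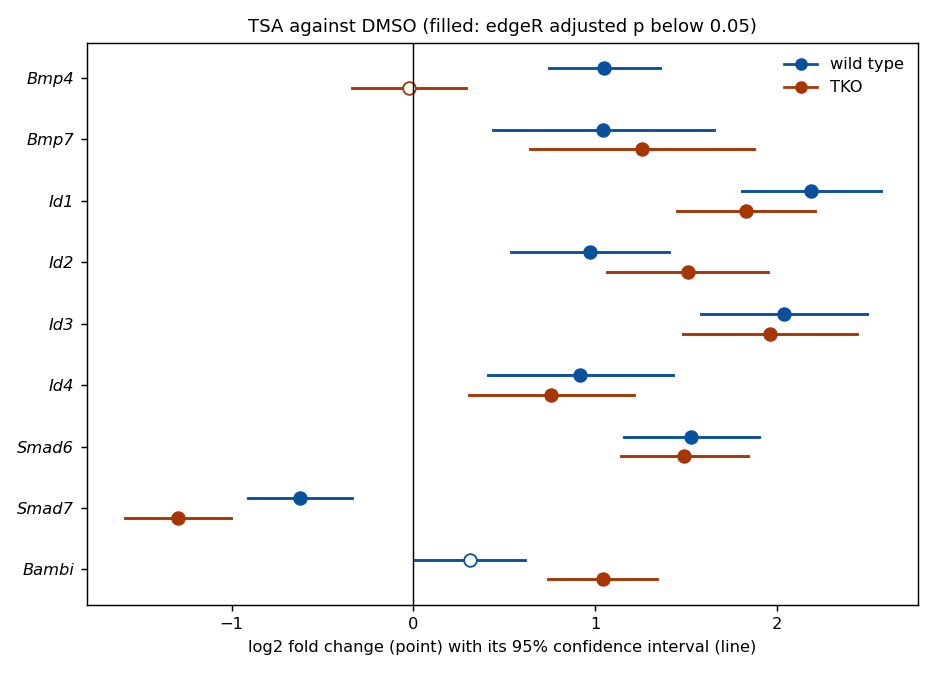
Log2 fold change of TSA against DMSO (horizontal axis) for the 9 genes, with points for wild type and TKO, lines for 95% confidence intervals, and filled points where the edgeR adjusted p was below 0.05. The intervals of the genotypes lie apart for Bmp4, Smad7 and Bambi, where the test of the difference gave adjusted p of 0.0334, 0.113 and 0.101; that of Smad7 passed without the filter on low counts (0.0427), and that of Bmp4 was lost in 5 of 8 fits without 1 library.

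The second comparison set TKO cells against wild type cells. In it the loss of DNA methyltransferases cannot be told apart from other differences between the lines or clones. In DMSO 3 of the 9 genes were called, beside 20.4% of all tested genes: Id4 and Smad6 were higher, beside 9.63%, and Id3 lower, beside 10.7%. In TSA 7 of the 9 were called, beside 18.4% of all. Id4, Smad6 and Bambi were higher, beside 10.0% of all genes, and Bmp4, Id1, Id3 and Smad7 lower, beside 8.38%. Bmp4 was lower in TKO than in wild type by 1.23 ± 0.14 on the log2 scale there (SE, edgeR adjusted p 0.000266). This value comes from the same TSA libraries as the rise of Bmp4 in wild type, and Bmp4 in TKO was at 20.6 CPM in DMSO and 20.2 in TSA on average. That count rested on single libraries: it was 2 without TSA-treated wild type replicate 1, and 4 without TSA-treated wild type replicate 2 or TSA-treated TKO replicate 2. Bmp4 and Id3 were called in TSA under every alternative run. The median log2 fold change of the 9 genes was -0.19 in DMSO and -0.05 in TSA, beside -0.01 and 0.00 over all genes.

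**Figure D4:**
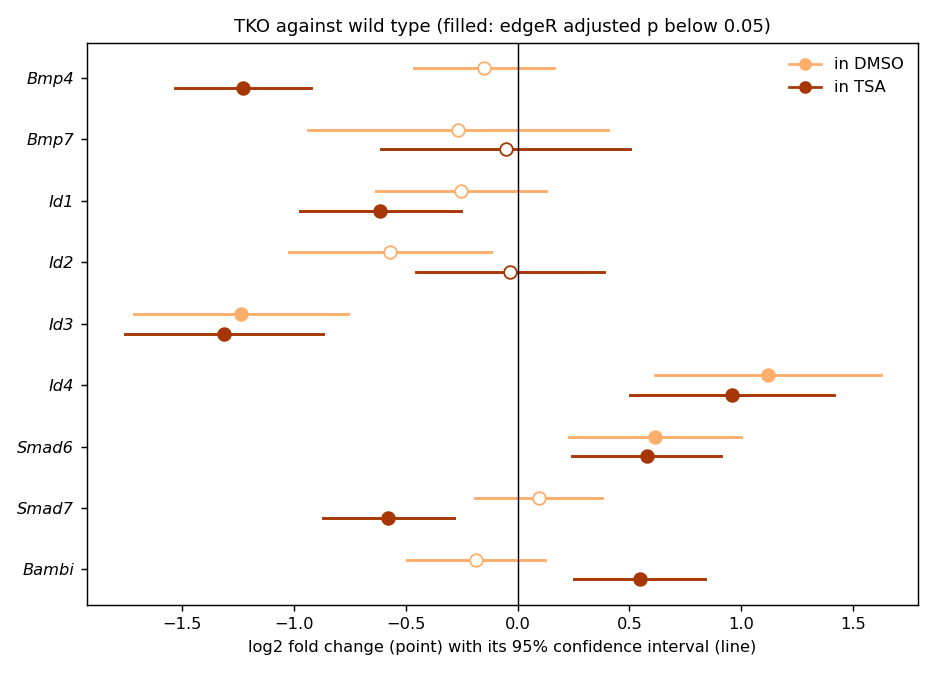
TKO against wild type on the log2 scale (horizontal axis) for the 9 genes in DMSO and in TSA, with lines for 95% confidence intervals and filled points where the edgeR adjusted p was below 0.05. Id3 lies on the lower side and Id4 and Smad6 on the higher side in both treatments, while Bmp4 is near 0 in DMSO and at -1.23 in TSA.

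A further comparison set TKO cells with TSA against wild type cells with DMSO, that is both changes at once. It shares its wild type control libraries with the comparisons of TSA in wild type and of TKO in DMSO. Its TSA-treated TKO libraries are shared with those of TSA in TKO and of TKO in TSA, so it is not independent of them. In it 8 of the 9 genes were called, beside 61.9% of all tested genes, with 7 higher, beside 31.7%, and Smad7 lower, beside 30.2%. Smad6 had the largest log2 fold change of the 9, at 2.11 ± 0.17 (SE), followed by Id4 at 1.88 ± 0.22 and Id1 at 1.58 ± 0.17, with edgeR adjusted p of 3.35e-06, 3.69e-05 and 2.04e-05. Bmp4 was at -0.18, with a 95% interval of -0.49 to 0.14 (edgeR adjusted p 0.301). Calls were lost for Bmp7 without TSA-treated TKO replicate 2 (0.82, adjusted p 0.0675) and for Id3 without wild type control replicate 2 (0.40, adjusted p 0.0667). In the test of whether the TSA effect differed between genotypes, Bmp4 was the 1 gene of 9 called, beside 1.35% of all genes, of which 0.879% were positive and 0.468% negative like Bmp4.

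The rest of the pathway was followed in 71 other genes in 6 lists, of which 59 had enough counts to be tested. With TSA, 22 were higher and 10 lower in wild type, beside 27.0% and 25.9% of all tested genes, and 25 were higher and 9 lower in TKO, beside 30.8% and 27.9%. Genes with few control counts entered the test through their TSA libraries, as for Sost below, so these counts favour a rise. TKO against wild type gave 3 higher and 7 lower in DMSO, beside 9.63% and 10.7% of all, and 9 higher and 5 lower in TSA, beside 10.0% and 8.38%. Between TKO with TSA and wild type with DMSO 25 were higher and 11 lower, beside 31.7% and 30.2%. The test of the difference between TSA effects called 0 of 59 with edgeR and 0 with DESeq2, beside 1.35% of all genes with edgeR. At an unadjusted p under 0.05 with edgeR it had 15 of the 59, and 2302 of the 15822 genes in all. The median log2 fold change of the 59 was 0.25 with TSA in wild type and 0.34 in TKO.

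**Figure D5:**
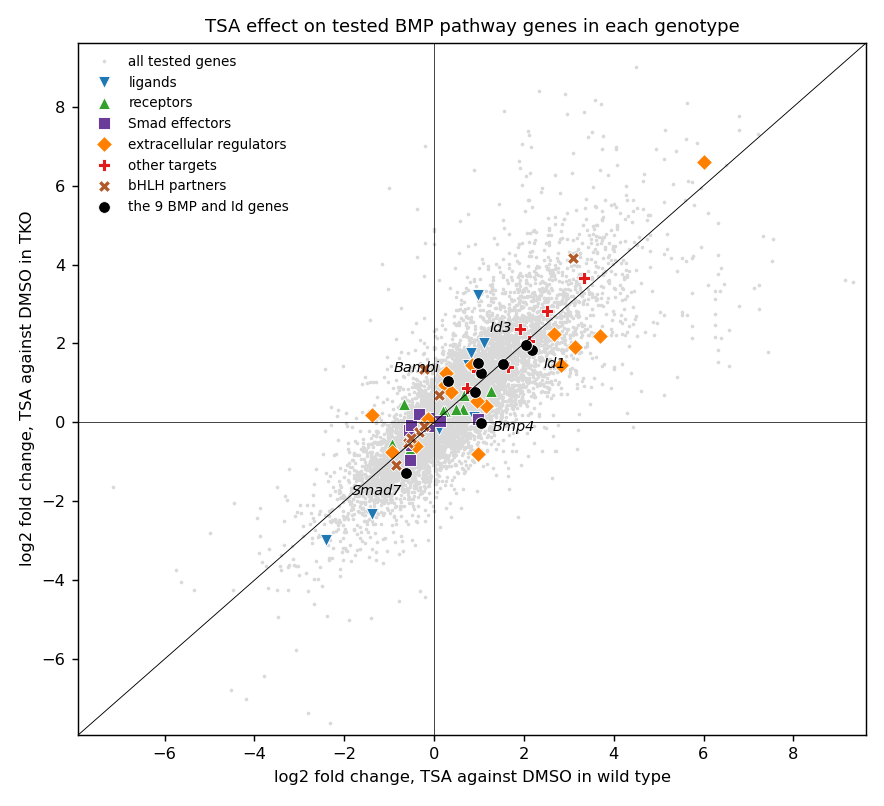
Log2 fold change of TSA against DMSO in wild type (horizontal axis) and in TKO (vertical axis) for all 15822 tested genes (grey), the 59 tested genes of the wider pathway by list, and the 9 BMP and Id genes (black). The diagonal marks equal change; Bmp4 lies below it at 1.05 and -0.03, and Smad7 lies in the lower left at -0.62 and -1.30.

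Among the other ligands, 8 of 13 were tested. Gdf3, a TGF-beta family ligand typical of undifferentiated stem cells, fell with TSA from 184 and 149 CPM to 36.1 and 26.7 in wild type, and from 209 and 161 to 25.9 and 20.6 in TKO. The changes were -2.41 and -2.99 on the log2 scale (edgeR adjusted p 1.00e-05 and 1.59e-06). Bmp6 rose with TSA, from 1.76 to 3.84 CPM on average in wild type and from 2.02 to 8.13 in TKO. Bmp8b was lower in TKO than in wild type, at 3.46 and 12.7 CPM in DMSO and at 11.8 and 22.7 in TSA, which is -1.88 and -0.95 on the log2 scale (edgeR adjusted p 0.0019 and 0.0294). Its close paralog Bmp8a may share reads with it, so these values are uncertain.

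All 11 receptor and co-receptor genes were tested: 2 were higher and 3 lower with TSA in wild type, and 2 higher and 2 lower in TKO, where 52.8% and 58.7% of all genes were called. Bmpr1a, the type I receptor for Bmp4, was between 190 and 217 CPM in all 8 libraries, with no call in any comparison; it was singled out after its values were seen. Acvr2b, a type II receptor, fell with TSA in wild type from 22.6 to 11.8 CPM (log2 fold change -0.93, edgeR adjusted p 0.0011) and also in TKO (-0.56, edgeR adjusted p 0.0150). Acvr1, a type I receptor, rose in TKO from 5.69 to 9.22 CPM (0.70, edgeR adjusted p 0.00855) and also in wild type (0.67, edgeR adjusted p 0.0141). Of 9 Smad genes and their regulators, 1 was higher and 3 lower with TSA in wild type, and 2 were lower in TKO, beside the same shares of all genes. Smad1, a transducer of the BMP signal, fell in wild type from 41.2 to 28.6 CPM (-0.53, edgeR adjusted p 0.00422), and was at -0.07 in TKO (edgeR adjusted p 0.660). The difference between these effects was 0.46 and was not called (edgeR adjusted p 0.243). Smad9, another transducer, rose with TSA in wild type from 1.13 to 2.26 CPM (0.98, edgeR adjusted p 0.0212) and was not called in TKO (0.08). In DMSO Smad9 was higher in TKO than in wild type (1.38, edgeR adjusted p 0.00935). Smad5 was not called with TSA in either genotype.

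Of 18 genes for extracellular regulators, 16 were tested, and 9 were higher and 1 lower with TSA in each genotype, beside 27.0% and 25.9% of all genes in wild type and 30.8% and 27.9% in TKO. Sost, listed here as an antagonist of BMP and Wnt signalling, had 1 and 1 counts in wild type controls and 44 and 121 in TSA-treated wild type cells. It had 3 and 3 counts in TKO controls and 158 and 514 in TSA-treated TKO cells. A gene with so few control counts enters the test through its TSA libraries, so a count over the genes tested favours a rise. Bmp1, a protease that cleaves the antagonist chordin, was the clearest of the list between genotypes. It was at 52.9 and 31.5 CPM in wild type controls and at 5.40 and 7.93 in TKO controls, and at 85.2 and 65.7 in TSA-treated wild type cells and 18.3 and 18.0 in TSA-treated TKO cells. The log2 fold changes of Bmp1 between genotypes were -2.67 and -2.05 (edgeR adjusted p 8.59e-05 and 0.000263). Nog, the antagonist noggin, was lower in TKO too, at 0.772 against 2.97 CPM in DMSO (-1.93, edgeR adjusted p 0.00851). Bmper went the other way, at 2.17 against 0.421 CPM in DMSO (2.36, edgeR adjusted p 0.00778). Of the list, 1 was higher and 4 lower in TKO in DMSO, beside 9.63% and 10.7% of all genes. In TSA 2 were higher and 3 lower, beside 10.0% and 8.38%.

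Of 9 further BMP targets, Dlx5 and Atoh8 had too few counts to be tested and the other 7 rose with TSA in both genotypes, beside 27.0% of all genes in wild type and 30.8% in TKO. Msx1, a homeobox gene induced by BMP in many embryonic tissues, was at 2.50 and 0.972 CPM in wild type controls and 14.5 and 21.7 in TSA-treated wild type cells, and at 0.889 and 0.946 in TKO controls and 7.91 and 15.2 in TSA-treated TKO cells. Dlx3 rose from 0.736 to 4.18 CPM in wild type and from 0.676 to 4.81 in TKO. Dusp9, a phosphatase that lowers ERK activity and is known as a BMP target in embryonic stem cells, was at 193 and 177 CPM in wild type controls, 342 and 373 in TSA-treated wild type cells, 206 and 225 in TKO controls, and 487 and 567 in TSA-treated TKO cells. In TSA Dusp9 was higher in TKO by 0.56 ± 0.10 (log2, SE, edgeR adjusted p 0.00404). In the same libraries that direction was opposite to that of Id1 and Id3 and the same as that of Id4 and Smad6.

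The bHLH genes whose products Id proteins bind or oppose had 1 higher and 2 lower with TSA in wild type and 3 higher and 2 lower in TKO, among 8 tested, where 52.8% and 58.7% of all genes were called. Neurog2, counted as higher in both, was at 0.0405 and 0.0342 CPM on average in wild type and TKO controls. It passed the count filter through its TSA libraries, which favours a rise. Tcf3, an E protein held by Id proteins, fell with TSA in wild type from 142 and 119 CPM to 91.9 and 89.2 (log2 fold change -0.53, edgeR adjusted p 0.00256). Tcf3 also fell with TSA in TKO (-0.41, edgeR adjusted p 0.0094). It was also lower in TKO controls, at 97.9 and 101 CPM, than in wild type controls (-0.39, edgeR adjusted p 0.0304). Among the other E proteins listed, Tcf4 rose with TSA in TKO (0.70, edgeR adjusted p 0.000273) and was not called in wild type (0.10). Tcf12 was not called with TSA in either genotype. Hes1, a repressor bHLH factor, fell with TSA by 0.84 in wild type and by 1.09 in TKO on the log2 scale, with edgeR adjusted p of 0.00218 and 0.000289.

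The genes with profiles most like those of Id1, Id3 and Bmp4 were sought among 10024 genes averaging 10 CPM or more, by Pearson's r of log2 CPM over the 8 libraries. These values are a description, since the libraries share their groups. For Id1 they were Gtdc2, Dnajc12 and Tspyl1, with r of 0.988, 0.986 and 0.985. For Id3 they were Calcoco1, Cdkn2b and Prkag1, with r of 0.992, 0.991 and 0.989. Cdkn2b, an inhibitor of cell cycle kinases, had mean levels of 13.9, 27.9, 7.63 and 16.8 CPM in wild type controls, TSA-treated wild type cells, TKO controls and TSA-treated TKO cells, the same order of groups as Id3. For Bmp4 they were Ccdc114, Lamb2 and Nanos3, with r of 0.970, 0.962 and 0.958. Nanos3, a gene of germ cell development, was at 5.36, 22.9, 5.72 and 6.49 CPM in the same groups, so that its mean too was high only in wild type with TSA.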

How the data were processed

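RNA was sequenced from 8 libraries of mouse embryonic stem cells, in 4 groups of 2 taken from the labels; 118 of the 126 samples of the series were not analysed here. Per the labels' protocols, total RNA was depleted of ribosomal RNA and made into directional, paired-end libraries. The authors deposited raw read counts per gene, with each gene's exon coordinates and summed exon length in bases. Per the submitters' processing notes, the tools were TopHat2 2.0.13, featureCounts 1.4.5-p1 and edgeR 3.22.3 and the build was mm10. Annotation, strand setting and treatment of multi-mapping reads are not given in the sources used here.

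Counts were tested with edgeR 4.0.16 (R 4.3.3). filterByExpr kept 15822 of 23420 genes, TMM factors scaled the libraries, and a quasi-likelihood model with 4 group means was fitted to all 8 libraries, leaving 4 residual degrees of freedom. Tests were two-sided, with Benjamini-Hochberg adjustment over all tested genes and calls at an adjusted p below 0.05. SE is approximate, as the size of the change over the root of F. DESeq2 1.42.0, other scalings, no filter, a replicate block, fits of only the groups compared, and leaving out each library were alternatives. The model was also run on counts simulated from its own fitted dispersions, with far fewer genes changed than were called with TSA. That run therefore does not test how well the model suits these data. An exact permutation test of 1 gene in 2 against 2 libraries has a smallest p of 0.333, and p-values measure only the spread between these libraries, whose common biological coefficient of variation was 10.3%. Replicates differed by more than sampling noise (chi-square per degree of freedom 5.28 to 12.2).

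Named genes were the 9 genes; per comparison and pathway list, at most 3 called genes with the largest change and a mean of at least 1 CPM; the targeted genes; and the 3 genes most like Id1, Id3 and Bmp4. The 9 genes, the lists and the rules were chosen with earlier results of these data known. A gene that the rule would name is not reported here.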

Additional observations from a re-analysis of the deposited data

Results flagged for a closer look

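The response of Bmp4 to TSA differed between genotypes by the test of the difference itself. The TSA effect of TKO less that of wild type was -1.08 on the log2 scale (edgeR adjusted p 0.0334). Bmp4 was higher in 2 of 2 TSA-treated wild type libraries than in either wild type control library, while the TKO libraries of the treatments overlapped. The call held with RLE, upper quartile and total count scaling, without the filter on low counts, with the replicate block and with DESeq2. It was lost in 5 of the 8 fits that left out a library, with adjusted p between 0.0325 and 0.167 over the 8.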

How the results depend on the processing

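Of 35 calls of the 9 genes, 22 held under every alternative and 13 were lost in some, each of these only with a library left out. None of the called results changed sign. Among uncalled results, Bmp4 with TSA in TKO went from -0.03 to 0.0496 with upper quartile scaling and 0.12 with total counts, and from -0.15 to 0.0840 over fits without 1 library. Without 1 library, TKO against wild type ranged from -0.62 to 0.0288 for Bmp7 and -0.0394 to 0.23 for Smad7 in DMSO, and from -0.23 to 0.15 for Bmp7 and -0.26 to 0.17 for Id2 in TSA. The difference between TSA effects ranged from -0.0827 to 0.57 for Bmp7, -0.49 to 0.24 for Id3, -0.38 to 0.11 for Id4 and -0.24 to 0.15 for Smad6. Without 1 library, calls between genotypes in DMSO were 5 to 11 in the wider pathway, and in TSA 2 to 7 of the 9 genes and 2 to 17 of the wider pathway. For the difference between TSA effects they were 0 to 1 and 0 to 1, and without the filter 2 and 1. Labels do not say what a replicate number shares, and the r between deviations of libraries with equal numbers was 0.0673 to 0.325. With the replicate block, the difference between TSA effects had 2 calls among the 9 genes (Bmp4 and Smad7, the latter -0.68, adjusted p 0.0179) and 2 in the wider pathway, and Id2 was called between genotypes in DMSO (adjusted p 0.00165). Total counts and upper quartiles moved the median of all genes with TSA in wild type to 0.22 and 0.16, and its calls from 4266 higher and 4092 lower to 5812 and 2433, or 5365 and 2794. In TKO total counts gave 5908 higher and 3267 lower. Depth limits mainly the wider lists, where 59 of 71 genes had enough counts to be tested, while all 9 genes were above the floor of 3 counts in every library.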

Other observations

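The 2 wild type control libraries differed from each other in Id3 more than in Id1. The ratio of Id3 to Id1 per kilobase of exon was 0.961 in replicate 1 and 0.671 in replicate 2 of wild type controls, 0.683 and 0.803 in TSA-treated wild type cells, 0.427 and 0.409 in TKO controls, and 0.373 and 0.588 in TSA-treated TKO cells. In this ratio each TKO library was below each wild type library.

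Of the marker genes of other cell types, mesenchymal markers had 4 of 8 called higher with TSA in wild type, beside 27.0% of all tested genes, and 7 of 8 in TKO, beside 30.8%. Of the 8, 7 were tested. Lum, at 0.0713 and 0.0364 CPM on average in wild type and TKO controls, passed the count filter through its TSA libraries. The mesenchymal counts therefore favour a rise. Neural markers had 4 lower and 1 higher of 5 in wild type, where 25.9% of all genes were lower, and 3 lower and 1 higher in TKO, where 27.9% were lower. In DMSO, TKO had 3 of 5 endoderm markers higher, and 1 of 5 mesoderm markers higher and 2 lower, with 4 of the mesoderm markers tested, beside 9.63% of all genes higher and 10.7% lower.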
